A study of Mus musculus with 32 samples.

Results

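The 8 genes of fibroblast growth factor (FGF) signaling described here were measured across 6 mesenchymal cell classes of one culture system, out of 31053 genes in the count tables. They are the receptor genes *Fgfr1*, *Fgfr2* and *Fgfr3*, the receptor-like gene *Fgfrl1* and the ligand genes *Fgf2*, *Fgf7*, *Fgf18* and *Fgf23*, found by their symbols, and 8 of 8 were present. The cells were bone marrow stromal cells cultured in osteogenic medium (BMSC-OBs), which contained ascorbic acid, β-glycerophosphate and dexamethasone, so every group carries that treatment. They came from 77 Diversity Outbred (DO) mice, an outbred population descended from several inbred strains, and cells of 4 or 5 mice were pooled before droplet single-cell RNA-seq (scRNA-seq). This gave 16 pools, each sequenced in 2 runs (32 samples), and the levels given below are from the first run, HGYVNCCX2. A pool is the replicate (n = 16), so each value is an average over several genetically different mice, and ages and sexes of the mice were not used.

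The cell classes were clusters named from marker genes, and they are called "-like" because the names rest on those markers. LMP-like cells (late mesenchymal progenitors) are an intermediate stromal state, and MALP-like cells (marrow adipogenic lineage progenitors) are marked by genes of the adipocyte lineage. *Cfd*, *Retn*, *Cidec* and *Plin1*, genes of lipid-filled adipocytes, were among the leading genes of 2 of the MALP-like clusters, which held 1380 of the 9963 cells (13.9%). OBP-like cells are osteoblast progenitors, OB1-like and OB2-like cells are 2 kinds of mature osteoblast, and Ocy-like cells express osteocyte genes. Such genes were not particular to Ocy-like cells. *Mepe* and *Sost* were among the leading genes of the cluster that held 4011 of the 4275 OB1-like cells. *Sost* was also among those of the Ocy-like cluster of 3858 cells. Ocy-like against OB1-like cells is thus no clean contrast of osteocytes with osteoblasts. Of the LMP-like cells 2247, and of the OB2-like cells 624, were in clusters led by cell-cycle genes such as *Birc5* and *Ube2c*, with 32.0% and 50.8% of their cells from 1 pool. A further class of the study, MPC (mesenchymal progenitor cells), is not described here, because the cluster closest to its markers (13167 cells, median 1318 UMIs) stayed unnamed for its low depth, with 1 of those markers among its 10 leading genes. The 6 classes held 12785 LMP-like, 9963 MALP-like, 5584 OBP-like, 4275 OB1-like, 8071 OB2-like and 4238 Ocy-like cells, and OB2-like cells reached the minimum of 20 cells in 14 pools, the other classes in 16. Each class had the highest level of most of its own markers (6 of 8 for LMP-like, 9 of 9 for MALP-like, 4 of 4 for OBP-like, 6 of 6 for OB1-like, 7 of 8 for OB2-like and 6 of 6 for Ocy-like). The mesenchymal markers were taken in part from the study's own lists, which were chosen on these samples, so this is a check of the naming and not an independent one.

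FGFs are secreted proteins that bind receptor tyrosine kinases together with heparan sulfate, and the activated receptor signals through the RAS-ERK cascade, among others. FGFR1, FGFR2 and FGFR3 carry that kinase, whereas FGFRL1 binds FGFs and heparin but lacks the kinase domain. In the skeleton, activating changes in FGFR3 cause achondroplasia, activating changes in FGFR1 and FGFR2 cause craniosynostosis syndromes, and FGF23 is the osteocyte hormone that lowers phosphate reabsorption in the kidney. FGF2 is a broad mitogen of stromal cells, FGF7 is a stromal ligand of the epithelial splice form of FGFR2, and FGF18 acts on cartilage and bone.

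In GRCm38.p6 coordinates (RefSeq), *Fgfr1* lies on chromosome 8 (25518759 to 25575718, plus strand), *Fgfr2* on chromosome 7 (130162451 to 130266808, minus strand) and *Fgfr3* on chromosome 5 (33721724 to 33737068, plus strand). *Fgfrl1* is also on chromosome 5 (108694229 to 108706950, plus strand), and *Fgf2* is on chromosome 3 (37348477 to 37410106, plus strand). *Fgf7* lies on chromosome 2 (126034658 to 126091185, plus strand), *Fgf18* on chromosome 11 (33116970 to 33147400, minus strand) and *Fgf23* on chromosome 6 (127072902 to 127082296, plus strand). Counts were made from the 3′ ends of transcripts, so splice forms of a receptor, which decide which ligands it binds, cannot be told apart, and levels of different genes are not compared with each other except as shares of receptor UMIs. *Fgf2* overlaps *Gm43439* on its own strand and *Fgf2os*, *Gm42923* and *Nudt6* on the other, and *Fgfr1*, *Fgfr3* and *Fgf7* each overlap 1 transcript on the other strand (*Gm16159*, *G630022F23Rik* and *Fam227b*). How strand was handled in the counting is not given in the sources used here, so the counts of these 4 genes may share reads with those transcripts.

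*Fgfrl1* and *Fgfr2* were the receptor genes among the members whose level was higher in MALP-like cells than in any other class (below). The 250 bases before their annotated starts are shown because these genes separate the classes. Both are RefSeq sequence of GRCm38.p6, 5′ to 3′ on the strand of the gene, at chr5:108693979-108694228 (plus strand) and chr7:130266809-130267058 (minus strand), and capitals mark a match to CCCNNGGG, the motif type of the early B-cell factors (EBF):
Fgfrl1: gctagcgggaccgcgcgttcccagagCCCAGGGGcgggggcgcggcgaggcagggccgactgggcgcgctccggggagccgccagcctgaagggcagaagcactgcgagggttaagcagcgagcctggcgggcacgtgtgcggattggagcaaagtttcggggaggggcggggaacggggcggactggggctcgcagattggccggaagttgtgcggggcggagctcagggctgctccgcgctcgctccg
Fgfr2: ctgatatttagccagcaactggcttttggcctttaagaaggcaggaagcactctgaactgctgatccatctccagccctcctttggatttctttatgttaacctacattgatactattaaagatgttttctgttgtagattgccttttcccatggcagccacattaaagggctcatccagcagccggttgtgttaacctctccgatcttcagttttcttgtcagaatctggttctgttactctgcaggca
The stretch before *Fgfrl1* was 73.6% G and C and that before *Fgfr2* 44.0%, against a median of 52.4% over 32851 RefSeq promoter windows. The motif is its own reverse complement in letters, and 11.8% of the windows held it. The same 250-base stretch was searched before each annotated start that the RefSeq promoter table gives for 7 of the 8 genes (all but *Fgfr1*). *Fgfr3* has 2 such starts, and that of *Fgf2* lies inside the gene bounds given above. These windows held no match to a CEBP-type motif (TTGCGCAA, in 0.164% of all windows), an AP-1-type motif (TGANTCA, 6.75%), a RUNX-type motif (TGTGGT, 14.0%) or a PPAR-type motif (2 copies of AGGTCA 1 base apart, 0.0335%) on either strand, and the EBF-type letters were found in the *Fgfrl1* window alone. These are letter matches in a short window and say nothing about binding.

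Of 83906 cells that passed the filters, 44916 (53.5%) were in the 6 classes and 26936 stayed in 5 unnamed clusters, mostly of low depth. The median depth per cell was 10127 UMIs (unique molecular identifiers, each a captured transcript) in MALP-like cells and 15040 to 22610 in the other 5 classes. It was 2782 to 15273 UMIs over pools, with pool 13 at the bottom. Run totals were 53990642 to 100777353 UMIs per pool, and 2 pools shared 3 to 28 cell barcodes (median 13). Summed over 7 macrophage markers, the median level over pools was 0.687 to 1.88 UMIs per 10,000 in the 6 classes and 235 in macrophage-like cells. The 9 MALP markers summed to 242 in MALP-like, 17.9 in LMP-like and 1.42 to 2.14 in the osteoblastic classes. Their sum was 11.5 in macrophage-like, 17.3 in granulocyte-like and 2.38 in T-cell-like cells, so the LMP-like sum was near that of a blood-cell class. The part of such foreign RNA in the results below was not tested.

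Levels are given as UMIs of the gene per 10,000 UMIs of all genes, summed over the cells of a class in a pool. Fold changes between classes are on another scale. They come from an edgeR quasi-likelihood test over all genes with TMM scaling and the pool as a block, and p_adj is its p-value after Benjamini-Hochberg adjustment over all genes tested. TMM scaling moved the median of all genes by 0.16 to 0.58 on the log2 scale in absolute size compared with scaling by library size, most for MALP-like against OBP-like cells, so a level and a fold change can differ by that much. The cells that were clustered into classes are also the cells compared, although the 8 genes and the other pathway genes were not among the clustering features, so p-values are too small to an unknown degree.

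Between MALP-like and LMP-like cells, *Fgfrl1*, *Fgfr2* and *Fgf2* were higher in MALP-like cells and *Fgfr1*, *Fgfr3*, *Fgf7* and *Fgf18* were lower. This was 7 of 7 genes tested, where 72.7% of all 12217 genes passed the same test (36.4% higher and 36.2% lower). Of the genes called, 50.1% were higher in MALP-like cells with TMM scaling and 73.1% with library-size scaling. The median absolute log2 fold change was 0.77 for the 7 genes and 0.32 for all genes. Between OBP-like and LMP-like cells, *Fgfr1* was higher in OBP-like cells, and *Fgfr2*, *Fgfr3*, *Fgfrl1*, *Fgf2* and *Fgf7* were lower. That was 6 of 7 genes tested, with 74.9% of all genes called (49.2% of the calls higher with TMM and 22.5% with library-size scaling), and a median absolute change of 0.53 against 0.38. MALP-like and OBP-like cells are called 2 lineages below, after the adipogenic and osteogenic paths that the study inferred to part at LMPs. No path was inferred here, so the word names classes only. These classes differed in 6 of 6 genes tested (4 higher and 2 lower in MALP-like cells), with a median absolute change of 1.56 against 0.50. Of all genes, 81.2% were called, 41.9% higher and 39.3% lower (51.6% of the calls higher with TMM and 81.2% with library-size scaling). These 3 comparisons share class sums with each other, so they are not independent.

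The other comparisons were among the osteoblastic classes. OB1-like cells were higher than OBP-like cells for 5 of 6 genes tested (63.4% of all genes called, 31.4% higher, with 49.6% of the calls higher by TMM and 26.0% by library-size scaling), with a median absolute change of 0.23 against 0.26 for all genes. OB2-like cells were higher than OBP-like cells for 3 genes and lower for 1 of 7 tested (66.6% called, 34.1% higher and 32.5% lower, with 51.2% and 31.9% of the calls higher by the 2 scalings). Ocy-like cells were lower than OB1-like cells for 5 genes and higher for *Fgfrl1*, which was 6 of 6 tested (56.5% called, 29.1% higher and 27.5% lower, with 51.4% and 75.3% of the calls higher), with a median absolute change of 0.57 against 0.23. *Fgf23* was under the filter on low counts in all 6 comparisons and *Fgf18* in 3 of them. A share of calls this near the background over all genes is not a result about the 8 genes as a group, and the values of single genes follow.

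**Figure D1:**
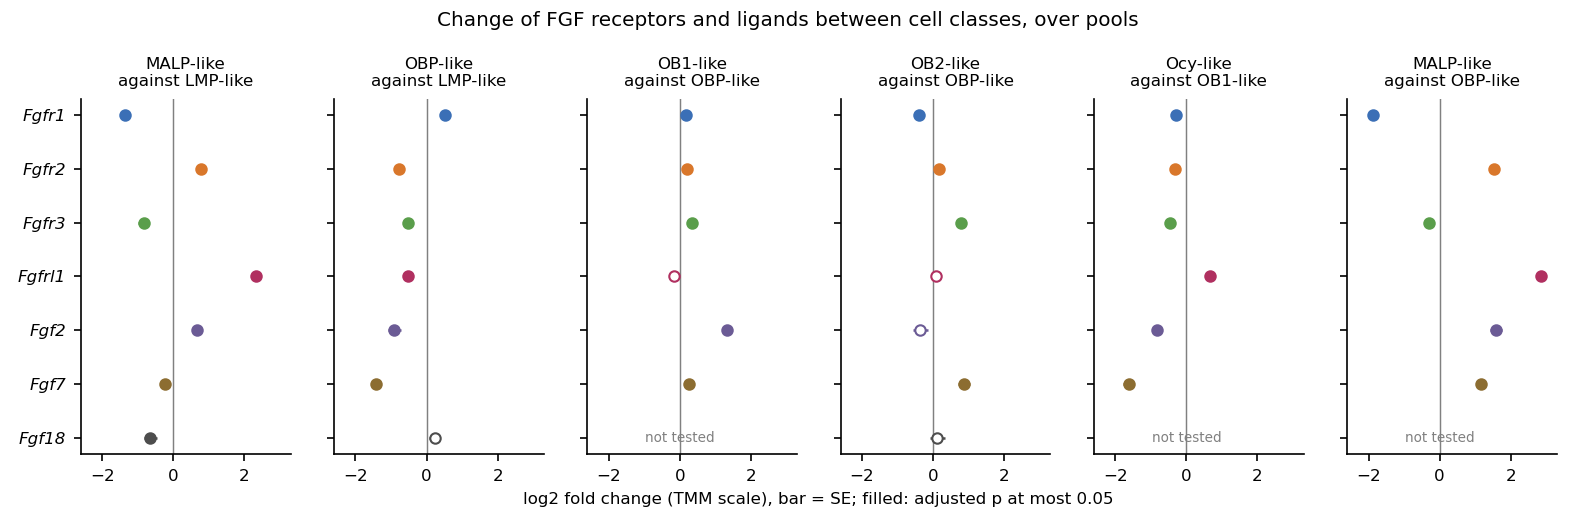
Log2 fold change (x axis, TMM scale) of 7 genes (rows) in 6 comparisons of cell classes (panels), from edgeR over 16 pools (14 for OB2-like). Bars are standard errors and are mostly smaller than the points, filled points passed at an adjusted p of 0.05, and *Fgfrl1* in MALP-like cells lies farthest to the right, at 2.33 against LMP-like and 2.84 against OBP-like cells.

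*Fgfrl1* was low in every class but MALP-like cells. In MALP-like cells its level was between 0.763 and 1.21 UMIs per 10,000 over the 16 pools, with a median of 0.913 and a mean of 0.960 ± 0.133 (SD). In LMP-like cells it was between 0.101 and 0.245 (median 0.161, mean 0.162 ± 0.0318). The lowest MALP-like pool was thus above the highest LMP-like pool, and MALP-like cells were higher within 16 of 16 pools. Levels that do not overlap between these classes were seen for 10.2% of all genes tested. The edgeR log2 fold change was 2.33 (SE 0.082, p_adj = 3.13e-15), a fold of 5.02, and 3.72% of the genes tested moved by more in either direction.

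In the osteoblastic classes *Fgfrl1* was lower still. The level in OBP-like cells was 0.0527 to 0.113 (median 0.0899), in OB1-like cells 0.0503 to 0.105 (median 0.0702) and in OB2-like cells 0.062 to 0.114 (median 0.0821). Ocy-like cells had 0.0784 to 0.162 (median 0.122). These ranges overlap each other, and none reached the MALP-like range. OBP-like cells were below LMP-like cells in 16 of 16 pools (log2 fold change -0.53, SE 0.063, edgeR p_adj = 1.21e-07), and Ocy-like cells were above OB1-like cells in 16 of 16 pools (0.67, SE 0.085, edgeR p_adj = 2.84e-07). OB1-like cells gave a log2 fold change of -0.16 against OBP-like cells (edgeR p_adj = 0.0702, lower in 15 of 16 pools by level). OB2-like cells gave 0.07 against OBP-like cells (edgeR p_adj = 0.665, lower in 8 of 14 pools by level). The first was called (-0.36) when only library size was scaled and turned to 0.11 with a finer clustering (edgeR p_adj = 0.297). The second turned to -0.10 with library-size scaling (edgeR p_adj = 0.309) and was called higher with the finer clustering (0.31, edgeR p_adj = 0.0252) and with cells assigned one by one by their markers (0.24, edgeR p_adj = 0.043). Against OBP-like cells, the MALP-like level was higher in 16 of 16 pools without overlap (30.5% of all genes), with a log2 fold change of 2.84 (SE 0.073, edgeR p_adj = 1.35e-19), a fold of 7.17. The ratio of the levels themselves was 10.9, since levels are not TMM-scaled.

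*Fgfr2* followed the same order between the lineages at a smaller fold. It was 2.68 to 5.25 UMIs per 10,000 in MALP-like cells (median 4.20, mean 4.19 ± 0.623) and 1.37 to 2.51 in LMP-like cells (median 2.21, mean 2.09 ± 0.331). In OBP-like cells it was 0.728 to 1.14 (median 0.991, mean 0.968 ± 0.125). None of these 3 ranges overlapped, a separation that 10.2% of genes showed for MALP-like against LMP-like, 13.6% for OBP-like against LMP-like cells, and 30.5% for MALP-like against OBP-like cells. The log2 fold changes were 0.77 (SE 0.078, edgeR p_adj = 2.16e-08) for MALP-like and -0.76 (SE 0.069, edgeR p_adj = 1.96e-09) for OBP-like cells, each against LMP-like cells and each in 16 of 16 pools. Between MALP-like and OBP-like cells it was 1.54 (SE 0.041, edgeR p_adj = 1.93e-19), a fold of 2.91.

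Among the osteoblastic classes *Fgfr2* was nearly level. Its mean was 0.995 ± 0.199 in OB1-like, 0.944 ± 0.110 in OB2-like and 0.885 ± 0.103 in Ocy-like cells, and neighbors in this order differed by less than 1 SD over pools. The edgeR test called OB1-like (log2 fold change 0.21, p_adj = 0.000605) and OB2-like cells (0.16, p_adj = 0.00869) higher than OBP-like cells and Ocy-like cells lower than OB1-like cells (-0.31, p_adj = 9.64e-05). The 2 higher calls were lost with library-size scaling (0.02 and -0.01) and with a finer clustering (-0.01 and 0.04), and OB1-like cells had the higher level in 10 of 16 pools and OB2-like cells in 6 of 14. The finer clustering also changed the classes. Clusters of 2804, 2465 and 1392 cells were then named OB1-like, in place of 4275 cells in all. A cluster of 2776 cells led by *Dynap* and *Hmga2* stayed unnamed. For every gene its values also carry this change of classes, whose part was not tested.

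*Fgfr1* ran opposite to *Fgfr2* and *Fgfrl1* between the lineages. In MALP-like cells it was 0.792 to 1.70 UMIs per 10,000 (median 1.27, mean 1.22 ± 0.246) and in LMP-like cells 1.68 to 3.41 (median 2.44, mean 2.66 ± 0.545). In OBP-like cells it was 2.08 to 3.76 (median 2.97, mean 2.99 ± 0.449). MALP-like cells were lower than LMP-like cells within 16 of 16 pools, though the highest MALP-like pool just passed the lowest LMP-like pool, and they did not overlap with OBP-like cells (30.5% of all genes). The log2 fold change was -1.36 (SE 0.047, edgeR p_adj = 2.53e-15) against LMP-like and -1.88 (SE 0.069, edgeR p_adj = 7.69e-17) against OBP-like cells. OBP-like cells were above LMP-like cells by 0.53 (SE 0.051, edgeR p_adj = 4.47e-09) on the TMM scale, and in 12 of 16 pools by level.

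The other osteoblastic classes stayed near the OBP-like level of *Fgfr1*, except OB2-like cells. The mean was 3.01 ± 0.390 in OB1-like and 2.78 ± 0.599 in Ocy-like cells, and 2.02 ± 0.193 in OB2-like cells, whose 14 pools lay between 1.72 and 2.25. OB2-like cells, which carry markers of the hypoxia response, were below OBP-like cells in 14 of 14 pools (log2 fold change -0.41, SE 0.047, edgeR p_adj = 2.5e-07). OB1-like cells were called higher than OBP-like cells by 0.18 (edgeR p_adj = 0.000606), but by level they were higher in 7 of 16 pools, and the change was 0.00137 with library-size scaling and -0.09 with cells assigned one by one by their markers. Ocy-like cells were called lower than OB1-like cells by -0.30 (edgeR p_adj = 7.95e-05), which was lost under the same alternatives (-0.13 and -0.06). With doublets kept, the cells were also clustered anew, and the MALP-like class held 5595 cells in place of 9963. A cluster of 2822 cells closest to the OBP markers then stayed unnamed. Under that alternative the OB1-like call was lost as well (0.02), and MALP-like against OBP-like cells gave -2.54. Values with doublets kept thus also carry this change of classes, and the part of the doublets themselves was not tested.

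Relative to its mean, *Fgfr3* differed more between pools than the other receptors in LMP-like cells. This did not hold in OBP-like cells, where it was 0.230 ± 0.0359 beside 0.0879 ± 0.0161 for *Fgfrl1*. In LMP-like cells *Fgfr3* ranged from 0.134 to 0.763 UMIs per 10,000 (median 0.463, mean 0.461 ± 0.206), lowest in pool 18 and highest in pool 13. Pool 18 also had the lowest level in MALP-like, OB2-like and Ocy-like cells, at 0.161, 0.215 and 0.0975. The mean was 0.354 ± 0.0761 in OB2-like, 0.279 ± 0.0825 in MALP-like, 0.266 ± 0.063 in OB1-like, 0.230 ± 0.0359 in OBP-like and 0.205 ± 0.0643 in Ocy-like cells, and the ranges of all neighbors in this order overlapped.

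By the paired test *Fgfr3* was lower in both lineages than in LMP-like cells. The log2 fold change was -0.83 in MALP-like cells (SE 0.153, edgeR p_adj = 5.77e-05, lower in 11 of 16 pools by level, and -1.62 with doublets kept). In OBP-like cells it was -0.51 (SE 0.143, edgeR p_adj = 0.00285, lower in 15 of 16). OB2-like cells were above OBP-like cells in 14 of 14 pools, by 0.78 (SE 0.072, edgeR p_adj = 1.04e-08). OB1-like cells were above OBP-like cells by 0.35 (SE 0.064, edgeR p_adj = 2.9e-05) and Ocy-like cells below OB1-like cells by -0.47 (SE 0.108, edgeR p_adj = 0.000691). MALP-like against OBP-like cells gave -0.30 (SE 0.099, edgeR p_adj = 0.00773) with TMM scaling but 0.27 with library-size scaling (edgeR p_adj = 0.0111), and by level MALP-like cells were higher in 12 of 16 pools. On the TMM scale the change was -0.49 with a finer clustering, -0.81 with cells assigned one by one and -1.33 with doublets kept, all called, and -0.13 without the 2 adipocyte-led clusters (edgeR p_adj = 0.221). The direction for that pair thus depends on the scaling.

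**Figure D2:**
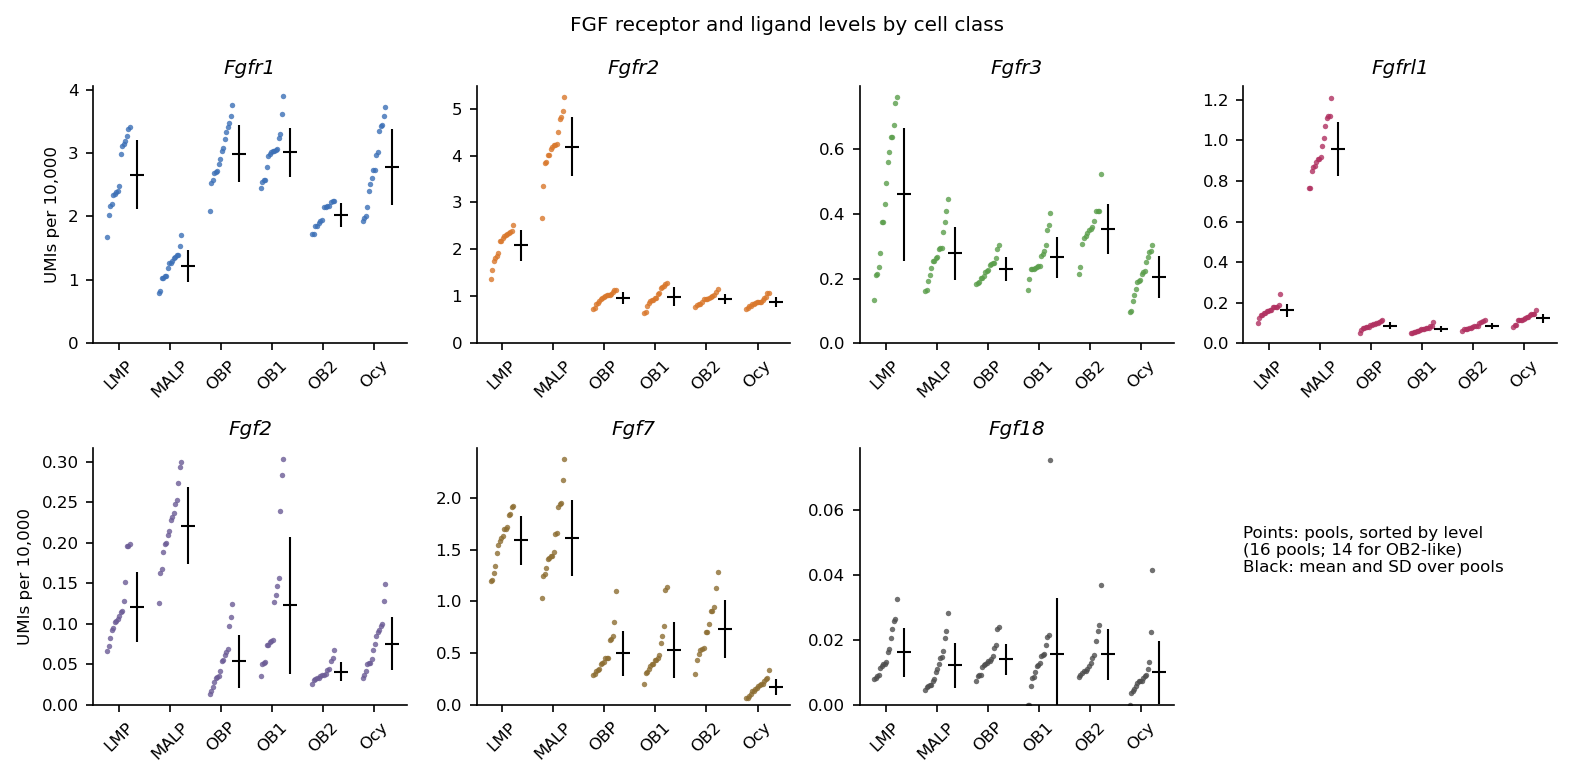
UMIs per 10,000 UMIs (y axis, a separate linear scale for each gene) of 7 genes in the 6 cell classes (x axis, LMP-like to Ocy-like). Each point is 1 pool, sorted by level within a class, and the black line is the mean ± SD over 16 pools (14 for OB2-like), with *Fgfrl1* and *Fgfr2* highest in MALP-like cells, *Fgfr1* lowest there, and *Fgfr3* widely spread in LMP-like cells.

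The receptors can also be described by their shares of the UMIs of the 4 receptor genes, which do not depend on the scaling of a library. 3′ counting makes these shares of captured transcript ends, not of protein. *Fgfr1* took 49.4% ± 7.43 (SD over 16 pools) in LMP-like cells and *Fgfr2* 39.0% ± 4.88. In MALP-like cells the order was the reverse, with 18.3% ± 2.72 for *Fgfr1* and 62.8% ± 3.42 for *Fgfr2*, and *Fgfrl1* took 14.7% ± 3.29. In OBP-like cells *Fgfr1* took 69.7% ± 4.26, *Fgfr2* 22.8% ± 3.83 and *Fgfrl1* 2.06% ± 0.349. OB1-like and Ocy-like cells had nearly the same make-up as OBP-like cells (*Fgfr2* at 23.0% ± 4.32 and 22.5% ± 3.42), and OB2-like cells had 27.7% ± 2.43 of *Fgfr2* and 10.4% ± 2.11 of *Fgfr3*.

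The *Fgfr2* share was compared within pools by an exact two-sided sign-flip permutation test, adjusted over the 6 pairs of classes. It was higher by 23.7 percentage points (SD of the differences 5.69) in MALP-like than in LMP-like cells, in 16 of 16 pools, and higher by 39.9 points (SD 3.26) than in OBP-like cells, in 16 of 16. In OBP-like minus LMP-like cells it was -16.2 points (SD 5.40), lower in 16 of 16. For these 3 the exact permutation p was 3.05e-05, the smallest that 16 pools allow (adjusted 6.1e-05). OB2-like cells were 5.52 points (SD 3.36) above OBP-like cells, in 13 of 14 pools (exact permutation, adjusted p = 0.000732). OB1-like against OBP-like cells (0.180 points, SD 3.94, adjusted p = 0.858) and Ocy-like against OB1-like cells (-0.534 points, SD 5.03, adjusted p = 0.818) did not pass the exact permutation test, and the first of these reached 2.68 points (adjusted p = 0.0141) when cells were assigned one by one by their markers.

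**Figure D3:**
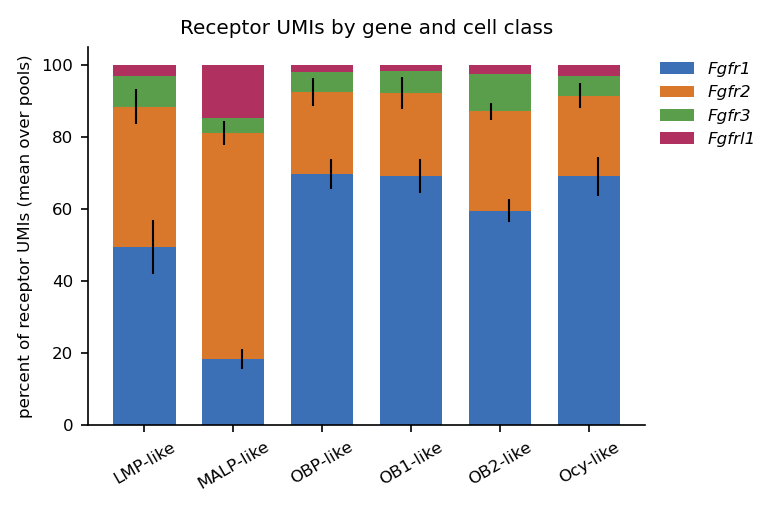
Share of the UMIs of *Fgfr1*, *Fgfr2*, *Fgfr3* and *Fgfrl1* taken by each gene (stacked bars, percent, mean over pools) in the 6 cell classes. Black lines are the SD over pools of the *Fgfr1* and the *Fgfr2* share, with *Fgfr2* at 62.8% in MALP-like cells and between 22.5% and 39.0% in the other 5 classes.

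Of the ligands, both *Fgf7* and *Fgf2* (below) differed between the lineages. *Fgf7* was 1.2 to 1.92 UMIs per 10,000 in LMP-like cells (median 1.62, mean 1.59 ± 0.238) and 1.03 to 2.37 in MALP-like cells (median 1.46, mean 1.61 ± 0.369). In OBP-like cells it was 0.286 to 1.1 (median 0.430, mean 0.499 ± 0.219). The LMP-like and OBP-like ranges did not overlap (13.6% of all genes), and OBP-like cells were lower in 16 of 16 pools (log2 fold change -1.41, SE 0.099, edgeR p_adj = 2.64e-11). MALP-like cells were above OBP-like cells in 16 of 16 pools (1.17, SE 0.102, edgeR p_adj = 4.64e-10). Against LMP-like cells they were called lower by -0.24 (SE 0.060, edgeR p_adj = 0.00109), and by -0.57 with a finer clustering, -0.61 with cells assigned one by one and -0.88 with doublets kept. The call was lost with library-size scaling (-0.00428), without the pool as a block (-0.22) and without the 2 adipocyte-led clusters (-0.11, edgeR p_adj = 0.105), and the level was higher in 9 of 16 pools.

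Further along the osteoblastic classes *Fgf7* was lowest in Ocy-like cells, at 0.0683 to 0.334 (median 0.174, mean 0.173 ± 0.0738). They were below OB1-like cells (0.526 ± 0.271) in 16 of 16 pools, with a log2 fold change of -1.62 (SE 0.149, edgeR p_adj = 1.36e-09), and 1.55% of the genes tested changed more in that comparison. OB2-like cells (0.729 ± 0.279) were above OBP-like cells by 0.87 (SE 0.158, edgeR p_adj = 7.26e-05), in 9 of 14 pools by level. OB1-like cells were called above OBP-like cells by 0.25 (edgeR p_adj = 0.0261), a call that was lost under 5 of the alternatives, with the level higher in 8 of 16 pools.

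*Fgf2* was measured at lower levels, and its highest mean was in MALP-like cells. There it was 0.126 to 0.300 UMIs per 10,000 (median 0.221, mean 0.221 ± 0.0475), against 0.0659 to 0.199 in LMP-like cells (median 0.108, mean 0.121 ± 0.043). MALP-like cells were higher in 16 of 16 pools (log2 fold change 0.68, SE 0.092, edgeR p_adj = 1.42e-06), though the ranges over pools overlapped. OBP-like cells were lower than LMP-like cells, at 0.0132 to 0.124 (mean 0.0538 ± 0.0329, log2 fold change -0.91, SE 0.185, edgeR p_adj = 0.000152), in 14 of 16 pools. Against OBP-like cells, MALP-like cells were higher in 16 of 16 pools without overlap (30.5% of all genes), by 1.58 (SE 0.176, edgeR p_adj = 2.56e-08).

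In OB1-like cells *Fgf2* was spread widely over pools, from 0.0354 to 0.303 (median 0.0793, mean 0.123 ± 0.0845). They were above OBP-like cells in 15 of 16 pools (1.33, SE 0.125, edgeR p_adj = 9.29e-10), and 2.08% of the genes tested changed more. The change was 0.58 (edgeR p_adj = 0.00237) with cells assigned one by one and 0.81 with doublets kept. Ocy-like cells (0.0755 ± 0.0331) were below OB1-like cells in 13 of 16 pools (-0.83, SE 0.133, edgeR p_adj = 8.85e-06). OB2-like cells had the lowest mean, 0.0407 ± 0.0118, and against OBP-like cells gave -0.36 (SE 0.213, edgeR p_adj = 0.142), which was called with library-size scaling (-0.53), without the filter on low counts (-0.39) and with cells assigned one by one (-0.70), and was 0.00377 with a finer clustering.

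*Fgf18* and *Fgf23* were close to or at the limit of detection. *Fgf18* had a mean of 0.0101 to 0.0162 UMIs per 10,000 in the 6 classes, with 56 UMIs in all Ocy-like and 404 in all LMP-like cells, and it was detected in 1014 of 44916 cells (2.26%). MALP-like cells (0.0122 ± 0.007) were called below LMP-like cells (0.0162 ± 0.00752) by -0.64 (SE 0.194, edgeR p_adj = 0.0056), in 14 of 16 pools by level, and the call was lost with library-size scaling (-0.41) and with a finer clustering (-0.33). OBP-like against LMP-like cells gave 0.23 (edgeR p_adj = 0.2), which was called with cells assigned one by one (0.42, edgeR p_adj = 0.0105) and with doublets kept (0.54, edgeR p_adj = 0.00331) and turned to -0.11 with library-size scaling. OB2-like against OBP-like cells gave 0.12 (edgeR p_adj = 0.631).

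*Fgf23* gave 17 UMIs in 15 of 44916 cells. LMP-like cells held 9 of them, MALP-like cells 3, OBP-like and OB1-like cells 2 each, and Ocy-like cells, the class named for the cell type that makes the hormone in bone, held 1 UMI in 1 of 4238 cells (0.0236%). In OB2-like cells 0 of 8071 had a UMI, which allows a share of cells with a captured UMI of up to 0.0372% (3 counts, counting error only) and sets no limit on the share of cells that express the gene. Genes that process or regulate the hormone passed the filter on low counts in every comparison. All 5 of the list (*Dmp1*, *Fam20c*, *Galnt3*, *Furin* and *Enpp1*) were higher in OBP-like than in LMP-like cells (36.8% of all genes), and 4 were higher and 1 lower in Ocy-like than in OB1-like cells (29.1% and 27.5%). Against OBP-like cells, 1 was higher and 3 lower in OB1-like cells (31.4% and 32.0%), and 0 were higher and 5 lower in OB2-like cells (34.1% and 32.5%). *Dmp1*, a matrix protein whose loss raises FGF23, had a level of 11.4 ± 4.40 in Ocy-like cells, 6.53 ± 3.13 in OBP-like cells and 0.385 ± 0.312 in LMP-like cells (OBP-like against LMP-like log2 fold change 4.58, SE 0.171, edgeR p_adj = 9.68e-16). *Galnt3*, whose product glycosylates FGF23, was higher by 2.41 in the same comparison (SE 0.094, edgeR p_adj = 1.84e-15). It was lower by -0.48 in OB1-like against OBP-like cells (SE 0.058, edgeR p_adj = 7.28e-08) and higher by 0.56 in Ocy-like against OB1-like cells (SE 0.056, edgeR p_adj = 5.08e-09).

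The levels were next followed along marker scores, as a description with no test. LMP-like and MALP-like cells of a pool were put into 5 equal bins by the summed share of the 9 MALP markers (adipogenic score), whose mean over pools rose from 2.91 UMIs per 10,000 in the lowest bin to 398 in the highest. The same markers named the MALP-like class, and MALP-like cells made up 0.705%, 9.85%, 39.5%, 75.2% and 93.9% of the bins on average. The changes over these bins therefore largely restate the difference between the 2 classes. *Fgfrl1* was 0.112, 0.129, 0.279, 0.740 and 1.46 UMIs per 10,000 from the lowest to the highest bin, a ratio of 12.9, with the top bin above the bottom one in 16 of 16 pools and a rise at every step in 12. *Fgfr2* was 1.63 and 4.26 in the lowest and highest bin and *Fgfr1* 3.02 and 0.832, with that direction in 16 of 16 pools for both. *Fgfr3* was 0.517 and 0.141, and the fourth bin had 0.322. *Fgf7* was highest in the middle (1.31, 1.71, 1.91, 1.78 and 1.14). *Fgf2* was 0.108 and 0.227, higher in the top bin in 13 of 16 pools. The median depth per cell was 23300 UMIs in the lowest and 9840 in the highest bin, and its part in these values was not tested.

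Within LMP-like cells alone, in 5 bins of the adipogenic score, *Fgfrl1* was 0.113 ± 0.023 in the lowest and 0.401 ± 0.164 in the highest bin. The bins between had 0.112, 0.118 and 0.147, so its rise lay mostly in the top bin. *Fgfr2* was 1.51 ± 0.316 and 2.94 ± 0.461 in the lowest and highest bin, and *Fgf7* 1.24 ± 0.302 and 2.04 ± 0.424. Each of these genes was higher in the top than in the lowest bin in 16 of 16 pools. *Fgfr1* was 3.06 ± 0.715 and 1.69 ± 0.259, with the top bin higher in 0 of 16. Within MALP-like cells, *Fgfrl1* was 0.284 ± 0.066 and 1.59 ± 0.168 (16 of 16 higher), *Fgf7* 2.31 ± 0.596 and 0.814 ± 0.208 (0 of 16), *Fgfr1* 2.13 ± 0.532 and 0.761 ± 0.169 (0 of 16) and *Fgfr3* 0.492 ± 0.158 and 0.0874 ± 0.0491 (0 of 16). *Fgfr2* within MALP-like cells was 3.99, 4.14, 4.28, 4.57 and 3.98 from the lowest to the highest bin, with SDs of 0.505 to 0.967, and the fourth bin was above the lowest in 11 of 16 pools and the highest in 5. *Fgf7* was therefore higher in the top bin among LMP-like cells and lower in it among MALP-like cells, while *Fgfrl1* was higher in it in both.

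Along the osteogenic score (LMP-like, OBP-like and OB1-like cells in 5 bins of the summed share of OBP and OB1 markers), *Fgfrl1* was 0.216, 0.137, 0.111, 0.0867 and 0.0774, lower in the top than in the bottom bin in 16 of 16 pools. *Fgf7* was 1.67 and 0.536 in the lowest and highest bin, also lower in 16 of 16. *Fgfr2* was 1.83, 2.18, 1.81, 1.23 and 0.951, highest in the second bin, and lower at the top in 15 of 16 pools. *Fgfr3* was also highest in the middle (0.224, 0.486, 0.493, 0.330 and 0.250). *Fgfr1* was 2.30 and 2.86, higher at the top in 12 of 16. These bins also mix classes that were named from the same markers.

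**Figure D4:**
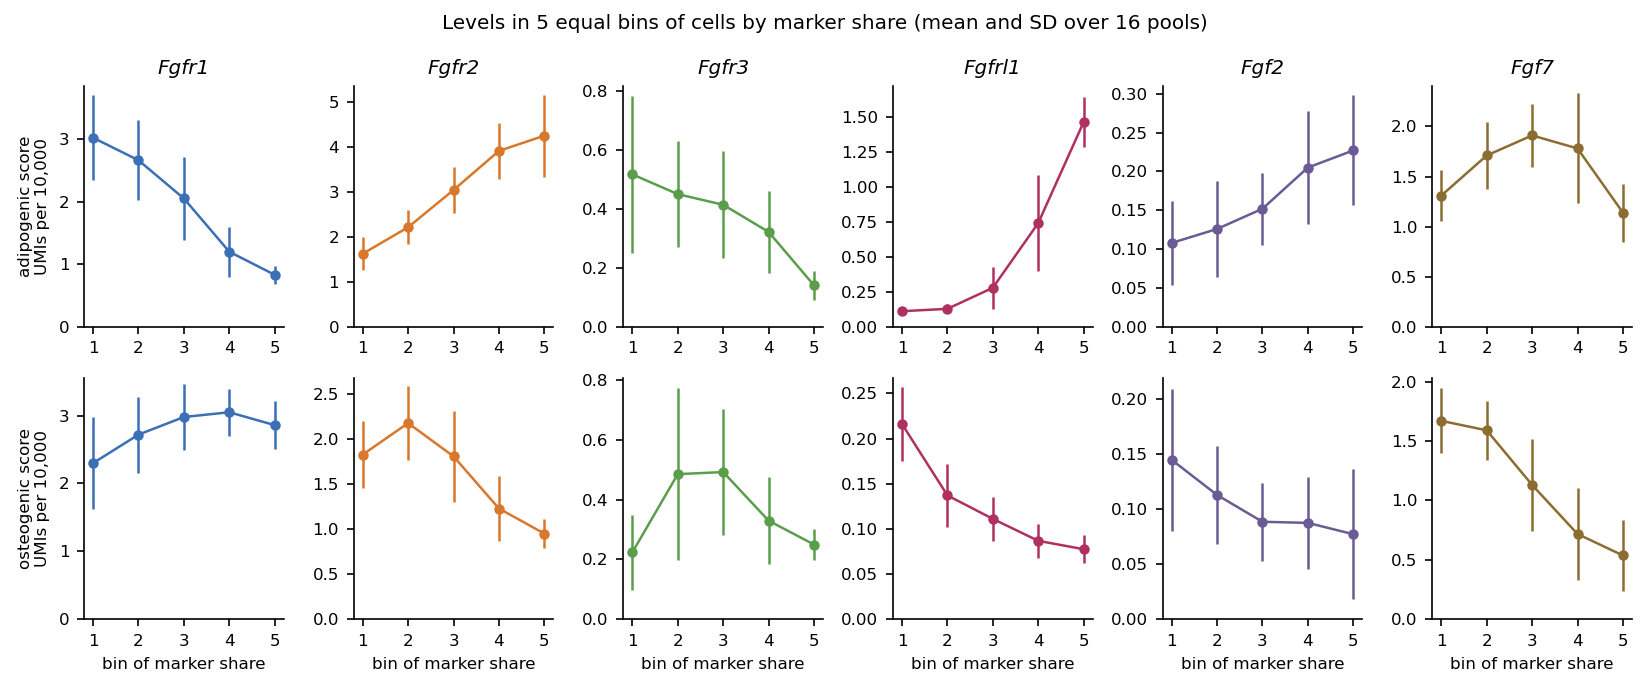
UMIs per 10,000 UMIs (y axis) of 6 genes in 5 equal bins of cells by marker share (x axis, lowest to highest), for the adipogenic score (top row) and the osteogenic score (bottom row). Points and bars are the mean and SD over 16 pools, with *Fgfrl1* at 0.112 in the lowest and 1.46 in the highest adipogenic bin and *Fgf7* highest in the third.

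To compare shares of cells with a UMI across classes of unequal depth, the share expected after thinning each cell to 2000 UMIs was computed, leaving out shallower cells (411 MALP-like cells and at most 27 in each of the other 5 classes). The smaller adipocyte-led MALP-like cluster (566 cells, 56.0% from 1 pool) had a median of 1971 UMIs. Many of its cells are thus missing from the thinned MALP-like shares. *Fgfrl1* was then detected in 17.2% ± 2.03 of MALP-like cells (SD over pools) and 3.48% ± 0.843 of LMP-like cells, and in 1.39% to 2.53% on average in the osteoblastic classes. Without thinning these were 53.7% of MALP-like and 24.8% of LMP-like cells. In macrophage-like cells (median depth 4774 UMIs, 653 cells left out), which are not stromal, the share was 0.629% ± 0.476 thinned and 1.5% unthinned. *Fgfr2* was detected in 53.2% ± 6.12 of MALP-like and 32.7% ± 4.30 of LMP-like cells (1.80% ± 0.916 of macrophage-like), and in 15.9% to 18.6% on average of the osteoblastic classes.

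The highest thinned share of *Fgfr1* was in OB1-like cells (43.5% ± 4.23), and the lowest of the 6 classes in MALP-like cells (19.7% ± 3.36). Macrophage-like cells had 3.80% ± 1.68. T-cell-like cells, in 8 pools at this depth, had 16.3% ± 12.9, with a range over pools of 6.12% to 56.7% unthinned (10 pools), and this class summed to only 4.62 UMIs per 10,000 over 6 T-cell markers. Its leading genes also held *Cpa3* and *Hdc*, genes of mast cells and basophils, so it is no pure class of T cells. *Fgf7* was detected in 24.8% ± 3.13 of LMP-like, 22.8% ± 4.22 of MALP-like and 3.48% ± 1.49 of Ocy-like cells (macrophage-like 0.883% ± 0.673), *Fgf2* in 4.00% ± 0.707 of MALP-like cells (macrophage-like 0.161% ± 0.185) and *Fgfr3* in 8.59% ± 3.53 of LMP-like cells (macrophage-like 0.291% ± 0.397). *Fgf18* reached 0.166% to 0.309% on average in the 6 classes, within 1 SD of each other.

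**Figure D5:**
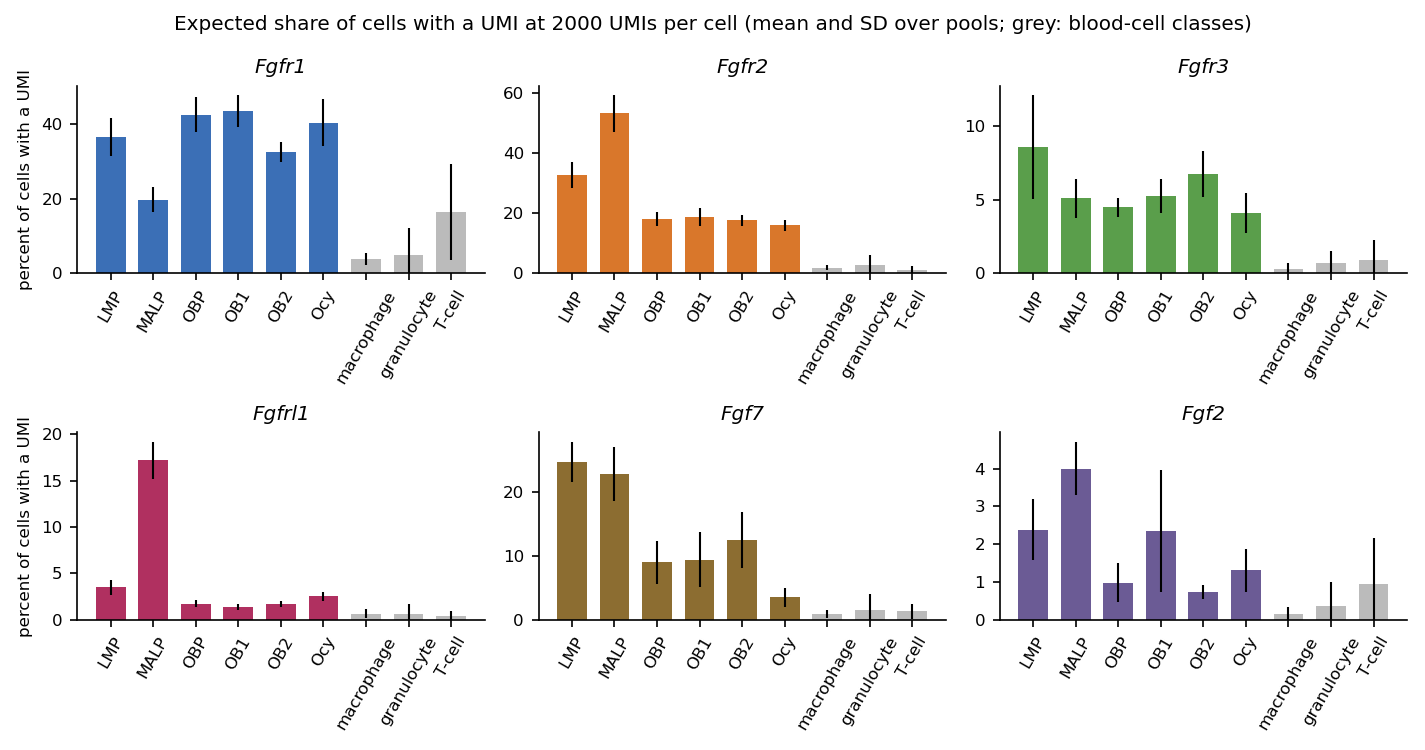
Expected share of cells with at least 1 UMI (y axis, percent) of 6 genes after thinning each cell to 2000 UMIs, in the 6 mesenchymal classes (colored bars) and 3 blood-cell classes (grey bars). Bars are means and lines SDs over pools, with *Fgfrl1* at 17.2% in MALP-like and 0.629% in macrophage-like cells.

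Other genes of the pathway were taken from lists chosen with earlier results of these data known. The ligand and receptor lists hold the 8 genes above as well, which are counted again in them. Of 22 ligand genes, 7 were tested between MALP-like and LMP-like cells (2 higher, 3 lower, beside 36.4% and 36.2% of all genes), and the others were under the filter on low counts. Of these 5 calls, 3 were *Fgf2*, *Fgf7* and *Fgf18*, described above, the last 2 with calls that were lost under some alternatives. *Fgf21*, an endocrine ligand, had its highest level in OB1-like cells, 0.167 ± 0.0777 UMIs per 10,000, against 0.0653 ± 0.0338 in OBP-like and 0.0064 ± 0.00334 in MALP-like cells (OB1-like against OBP-like log2 fold change 1.5, SE 0.101, edgeR p_adj = 1.63e-12). *Fgf1*, a ligand of all FGF receptors, was highest in Ocy-like cells, 0.201 ± 0.0814 against 0.0655 ± 0.0317 in OB1-like cells (1.27, SE 0.158, edgeR p_adj = 2.07e-07). *Fgf11*, an FGF homologous factor that stays inside the cell, was highest in OB2-like cells, at 0.0505 ± 0.0188 beside 0.0235 ± 0.00996 in LMP-like and 0.00834 ± 0.00478 in OBP-like cells. It passed the filter against OBP-like cells only through the class where it was high, so no test is given.

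Of 12 receptor and co-receptor genes, 8 were tested between MALP-like and LMP-like cells. Of these, 4 were *Fgfr1*, *Fgfr2*, *Fgfr3* and *Fgfrl1*, described above. *Klb*, the β-Klotho co-receptor that FGF21 needs, gave 486 UMIs in MALP-like cells (0.0422 ± 0.014 UMIs per 10,000, detected in all 16 pools) and 10 UMIs in LMP-like, 4 in OBP-like, 1 in OB1-like, 2 in OB2-like and 2 in Ocy-like cells. It was at 0 in 9 of the 16 LMP-like pools and passed the filter on low counts only through MALP-like cells, so its call there was set by the filter, and no fold or test is given. *Kl*, the co-receptor for FGF23, gave 0 UMIs in MALP-like cells and at most 3 in any class, and *Fgfr4* at most 5. *Flrt2*, a membrane protein that can bind FGF receptors, was higher in MALP-like than in OBP-like cells by 2.15 (SE 0.147, edgeR p_adj = 5.63e-12), and its level was 0.179 ± 0.119 in MALP-like cells, beside 0.230 ± 0.146 in monocyte-like, 0.180 ± 0.0903 in osteoclast-like and 0.131 ± 0.0339 in macrophage-like cells.

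Of the feedback inhibitors of FGF and ERK signaling and the genes used as ERK readouts, 13 of 14 were tested, and 9 were higher and 1 lower in MALP-like than in LMP-like cells (36.4% and 36.2% of all genes), with a median log2 fold change of 0.53 against 0.01 for all genes. Between OBP-like and LMP-like cells 1 was higher and 8 lower (36.8% and 38.1%), with a median of -0.59 against -0.02. *Spry1*, a Sprouty inhibitor of receptor tyrosine kinase signaling, had a level of 2.45 ± 0.771 in MALP-like, 0.652 ± 0.144 in LMP-like and 0.342 ± 0.0793 in OBP-like cells (MALP-like against LMP-like log2 fold change 1.64, SE 0.095, edgeR p_adj = 4.24e-12). *Dusp5*, an ERK phosphatase, was 1.16 ± 0.479, 0.246 ± 0.106 and 0.101 ± 0.0311 in the same classes (1.99, SE 0.104, edgeR p_adj = 8.29e-13), and macrophage-like cells had 0.350 ± 0.104. *Spry4* and *Dusp4* were higher in MALP-like cells by 1.18 (SE 0.089, edgeR p_adj = 2.13e-10) and 1.21 (SE 0.163, edgeR p_adj = 1.23e-06), and *Spry4* gave 0.09 in OBP-like against LMP-like cells (edgeR p_adj = 0.278). *Etv4*, an ETS factor that FGF signaling induces, was lower in both lineages than in LMP-like cells, by -2.09 in MALP-like (SE 0.226, edgeR p_adj = 5.65e-08) and -2.11 in OBP-like cells (SE 0.135, edgeR p_adj = 5.24e-12). These genes also answer to other receptors.

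Of 20 genes of signal transduction downstream of the receptors, 9 were higher and 6 lower in MALP-like than in LMP-like cells (36.4% and 36.2% of all genes), with a median log2 fold change of 0.08 against 0.01 for all genes. In OBP-like cells 6 were higher and 8 lower (36.8% and 38.1%), with a median of -0.10 against -0.02. *Shc1*, an adaptor, was higher in MALP-like than in OBP-like cells by 1.61 (SE 0.038, edgeR p_adj = 3.92e-20), and *Hras* was lower by -1.16 (SE 0.043, edgeR p_adj = 8.96e-17). Of 17 heparan sulfate genes tested, 4 were higher and 10 lower in MALP-like than in LMP-like cells (36.4% and 36.2% of all genes, and 50.1% of the calls higher with TMM and 73.1% with library-size scaling). In OBP-like against LMP-like cells 3 were higher and 11 lower (36.8% and 38.1%), with a median log2 fold change of -0.52. *Gpc1*, a glypican, was higher in OBP-like than in LMP-like cells by 1.62 (SE 0.066, edgeR p_adj = 3.05e-15) and lower in MALP-like cells by -0.91 (SE 0.088, edgeR p_adj = 1.11e-08). *Sulf1*, which removes sulfate groups from heparan sulfate, was higher in MALP-like cells by 0.90 (SE 0.111, edgeR p_adj = 4e-07) and lower in OBP-like cells by -1.51 (SE 0.149, edgeR p_adj = 6.69e-09).

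Over the 94 pool and class sums of the 6 classes and 9153 genes, the genes most like each member were listed by the Pearson correlation of log2(CPM + 1), as a description. Sums of a pool share mice and droplets, and sums of a class share its cell type, so these values have no test. For *Fgfrl1* they were *Il15* (r = 0.964), *Pdzrn4* (0.959), *Scp2* (0.958), *Steap4* (0.957) and *Wdr86* (0.955). For *Fgfr2* they were *Ptgfr* (0.966), *Tmem86a* (0.963), *Trabd2b* (0.961), *Arrdc4* (0.961) and the MALP marker *Kitl* (0.959). *Fgfrl1* and *Fgfr2* had r = 0.882 with each other, and *Fgfr1* had -0.768 with *Fgfrl1* and -0.673 with *Fgfr2*. For *Fgfr1* the most alike were *Pdgfc* (0.895) and *Dysf* (0.867), for *Fgf7* *Colec12* (0.886) and *Adamts1* (0.875), and for *Fgf2* *Thap12* (0.818) and *Tnip1* (0.814).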

How the data were processed

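UMI counts per gene and barcode, as deposited by the authors, came from Cell Ranger 5.0.0 and mm10 (GRCm38) per the submitters' notes, for barcodes called as cells, without normalization and before the authors' further cell filters. The annotation release is not given in the sources used here. Cells of run HGYVNCCX2 were kept with 400 to 6200 genes and at most 10% mitochondrial, 20% *Rpl* and 15% *Rps* UMIs (88909 of 107853 barcodes), and 5003 called doublets were removed. The second run re-sequenced the same droplets (98.2% of the barcodes) and was an alternative. Cells were not assigned to single mice, so the pool was the unit.

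Louvain clustering (3000 variable genes, 15 components, 20 neighbors, resolution 0.5) gave 27 clusters, named where the mean z of a marker list over clusters was at least 1 and at least 3 markers were detected, and no other list had more markers among its leading genes. Where lists were nearly level in mean z, the one with more markers among the leading genes was taken. A cluster more than 3 times shallower than its pools also needed 3 of its markers among its 10 leading genes, a limit set after the clusters had been seen, which left the 6 classes unchanged at this resolution and left the cluster closest to the MPC list unnamed. Its effect at resolution 0.8 and with doublets kept is among the alternatives. The members and lists were chosen with earlier results of these data known.

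Counts were summed per pool and class (at least 20 cells) and tested with edgeR 4.0.16 in R 4.3.3 (filterByExpr, TMM, quasi-likelihood F test, pool as a block, Benjamini-Hochberg adjusted p of at most 0.05). DESeq2 1.42.0, scaling, filters, doublets, clustering, the clusters in a class and a per-cell marker gate were varied as alternatives. SEs were derived from the fold change and F. Both classes of a pair came from the same droplets and mice, and deviations from class means correlated within pools (lowest r 0.124, medians 0.322 to 0.467) but not between them (medians -0.033 to -0.024). Tested on simulated counts with 200 genes changed by 1 on the log2 scale, 100% were recovered for MALP-like against LMP-like cells (12185 genes), with 6.1% of the calls false. In the other comparisons 99% to 100% were recovered, with 1.5% to 5.8% of the calls false. Far fewer genes changed in these counts than were called in the data (72.7% for that pair), so they do not test the scaling under so wide a change.

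Named genes were the 8 members, up to 6 genes of each pathway list with the smallest adjusted p among those changed by at least 1 on the log2 scale, and the 5 genes most correlated with each member. Those for *Fgfr3* are not reported here. *Kl*, *Fgfr4*, *Furin* and genes overlapping a member are named outside that rule. Intervals and floors cover counting error only.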

Additional observations from a re-analysis of the deposited data

How the results depend on the processing

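Of 470 values of single genes under the alternatives, 433 kept their direction and their side of the threshold, 18 fell below it, 9 passed it and 10 turned sign. A minimum of 50 cells changed the pools only in comparisons with OB1-like cells. Leaving out the cycling clusters changed only comparisons with LMP-like or OB2-like cells. Under these alternatives the values of the other comparisons could not move, so part of the unchanged values was fixed in advance. The second run re-sequenced the same droplets and was summed with the class names of the first. Its values could therefore move little. The *Fgfrl1* log2 fold change stayed between 1.95 and 2.57 for MALP-like against LMP-like cells and between 2.79 and 3.42 against OBP-like cells, and *Fgfr1* between -1.85 and -1.12 and between -2.54 and -1.30. With library-size scaling alone the sign turned for *Fgfr3* in MALP-like against OBP-like cells (0.27), *Fgfr2* (-0.01), *Fgfrl1* (-0.10) and *Fgf18* (-0.05) in OB2-like against OBP-like cells, and *Fgf18* in OBP-like against LMP-like cells (-0.11). With clustering at resolution 0.8 it turned for *Fgfr2* (-0.01) and *Fgfrl1* (0.11) in OB1-like and *Fgf2* (0.00377) in OB2-like against OBP-like cells, and with the per-cell marker gate for *Fgfr1* in OB1-like (-0.09) and *Fgf18* in OB2-like against OBP-like cells (-0.08). The *Fgfr2* share of receptor UMIs in OB1-like minus OBP-like cells was -0.0261 points in the second run, -0.038 without pool 13 and 2.68 with the gate. For the turns other than by scaling the cause was not tested.

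Shares of cells with a UMI depend on the depth by construction. At 4000 UMIs and without thinning they were 66.9% and 93.7% for *Fgfr1* in OB1-like, 74.1% and 87.8% for *Fgfr2* in MALP-like, 15.1% and 39.6% for *Fgfr3* in LMP-like, 30.3% and 53.7% for *Fgfrl1* in MALP-like, 7.48% and 17.6% for *Fgf2* in MALP-like, 40.2% and 76.0% for *Fgf7* in LMP-like and 0.621% and 3.01% for *Fgf18* in OB1-like cells.

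Without the pool as a block, the genes called were 7767 for MALP-like against LMP-like, 8092 for OBP-like against LMP-like, 5714 for OB1-like against OBP-like, 7017 for OB2-like against OBP-like, 4457 for Ocy-like against OB1-like and 8748 for MALP-like against OBP-like cells. Among the members this ended the calls of *Fgf7* in MALP-like against LMP-like (-0.22) and OB1-like against OBP-like cells (0.21) and no other. No count of genes called moved by 1.5 times or more under any alternative. Leaving out the cycling clusters, leaving out the 2 adipocyte-led clusters and naming the shallow clusters in the 2 clusterings where it mattered were chosen after seeing the data. Under the first, which could change only comparisons with LMP-like or OB2-like cells, no call of a member was lost or gained. Without the adipocyte-led clusters, of which the smaller had 56.0% of its cells from 1 pool, *Fgfrl1* was 2.27 and *Fgfr2* 0.87 in MALP-like against LMP-like cells, and the calls of *Fgf7* in that pair (-0.11) and of *Fgfr3* in MALP-like against OBP-like cells (-0.13) were lost.

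Depth limits *Fgf18* and *Fgf23*, and 3′ counts do not show splice forms or protein. Pools mix 4 or 5 mice, so differences between mice were not measured, and class names rest on markers, with 8311 of 12785 LMP-like, 7486 of 9963 MALP-like, 4573 of 5584 OBP-like, 2492 of 4275 OB1-like, 3272 of 8071 OB2-like and 2923 of 4238 Ocy-like cells in the same class by the gate.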

Other observations

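Outside the mesenchymal classes, a few of the pathway genes were higher than in any stromal class, given as levels with no test. *Flrt3*, a membrane protein that can bind FGF receptors, was 0.604 ± 0.339 UMIs per 10,000 in monocyte-like cells (SD over 9 pools) and 0.0873 ± 0.0472 in macrophage-like cells (16 pools), against 0.0244 ± 0.0101 in LMP-like cells, the highest of the 6 classes. *Fam20c*, a kinase of secreted proteins, was 1.58 ± 0.521 in macrophage-like and 1.04 ± 0.404 in monocyte-like cells, against 0.296 ± 0.180 in Ocy-like cells. *Dusp4* was 0.396 ± 0.182 in osteoclast-like (12 pools) and 0.349 ± 0.0649 in macrophage-like cells, above the 0.0989 ± 0.0295 of MALP-like cells. *Dusp5* was not among them, at 1.03 ± 0.542 in T-cell-like cells (10 pools, a cluster that mast cell and basophil genes also lead) and 0.827 ± 0.332 in monocyte-like cells, beside the 1.16 ± 0.479 of MALP-like cells.

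Several genes had their extreme level in the same pool in more than 1 class. Deviations from class means correlated within pools in general (medians of r 0.322 to 0.467), and the share of all genes with such repeats was not counted. The repeats are thus not shown to be particular to these genes. *Fgfr1* was lowest in pool 3 in LMP-like, OB1-like and Ocy-like cells, and *Fgfr2* was lowest in pool 7 in MALP-like, OBP-like and OB1-like cells. *Fgf7* was lowest in pool 18 in MALP-like, OB2-like and Ocy-like cells (1.03, 0.300 and 0.0683), and *Fgf2* was highest in pool 9 in MALP-like, OB1-like and Ocy-like cells (0.300, 0.303 and 0.149). *Fgf21* was highest in pool 11 in OBP-like, OB1-like and Ocy-like cells (0.139, 0.326 and 0.102). Each pool holds other mice and was a separate droplet sample, so differences between mice and between droplet samples cannot be told apart.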
